A study of Rattus norvegicus with 8 samples.

Results

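Bdnf, the neurotrophin gene Ntf3 and the receptor genes Ntrk2, Ntrk3 and Ngfr were followed across 8 arrays of rat frontal cortex. Members were all probe sets, the sets of short oligonucleotides read together as 1 value, whose symbol in the platform's gene table was exactly one of these 5. The rule found 10 probe sets of 31042 that were not controls: 2 for Bdnf, 5 for Ntrk2 and 1 each for Ntf3, Ntrk3 and Ngfr. Of the arrays, 4 came from rats that received olanzapine, an atypical antipsychotic acting on dopamine, serotonin and other receptors, at 2 mg/kg/day into the peritoneum for 21 days, and 4 from rats that received saline for 21 days. All were male Sprague-Dawley rats, an outbred stock, of about 200 g at the start, whose age the labels do not give. The labels put 20 rats in each group and 4 of each on arrays. Each array is named by its group and animal number, olanzapine 9, 14, 18 and 19 and saline 14, 15, 17 and 19.

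Neurotrophins are secreted growth factors that neurons and their targets make as precursors and cleave to mature forms. BDNF, the product of Bdnf, binds the receptor tyrosine kinase TrkB, which Ntrk2 encodes, and neurotrophin 3, the product of Ntf3, binds mainly TrkC, which Ntrk3 encodes. The p75 receptor, the product of Ngfr, binds all neurotrophins and their precursors. In the cortex BDNF is made by excitatory neurons in an activity-dependent way, full-length TrkB sits on neurons, and a truncated TrkB without a kinase domain is the main form in astrocytes. Cell bodies with much p75 lie in the basal forebrain, among cholinergic neurons that send fibres to the cortex.

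None of the 10 probe sets differed between olanzapine and saline beyond the spread between animals, and in none of them did the 4 values of one group all lie apart from the 4 of the other. The most positive difference was at 1 Bdnf probe set, 1368678_at, with 224 ± 54.4 in olanzapine and 174 ± 106 in saline (mean intensity ± SD, n = 4 each). The most negative was at the other Bdnf probe set, 1368677_at, with 306 ± 63.4 in olanzapine and 364 ± 64.9 in saline. Intensities are the authors' linear values in arbitrary units, scaled to a common trimmed mean on each array. Differences below are olanzapine minus saline on the scale log2(intensity + 63.4), tested with limma, and this scale understates the change of dim probe sets. Adjusted p-values from limma run over all 18625 probe sets left by a filter on dim ones.

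Bdnf transcripts start at several separate promoters and share 1 protein-coding exon, and neither the files nor the gene table say which transcripts each Bdnf probe set detects. RefSeq's table of promoter windows for the assembly GRCr8 held 6 Bdnf windows and 3 Ntf3 windows, of which the last 2 Bdnf windows overlap each other and the first 2 Ntf3 windows lie 1 base apart. The sites that the transcription factor CREB binds are built on the half-site TGACG. In the 250 bases before the start, TGACG on either strand was found in 1 of the 6 Bdnf windows, in 0 of the 3 Ntf3 windows and in 18.2% of all 33469 windows. The full site TGACGTCA, which overlaps the half-site, stood in 0 of the 6 Bdnf windows and in 1.59% of all windows. The E-box CACGTG, which can share end letters with a half-site, stood in 0 of the 6 Bdnf windows and in 5.59% of all. The Bdnf window that holds the half-site is shown because it is the one of the 6 with a match. It lies on the plus strand at chr3:116637608-116637857 in GRCr8, and capitals mark the half-site, read from the opposite strand, whose first base is at -35 from the start.
Bdnf: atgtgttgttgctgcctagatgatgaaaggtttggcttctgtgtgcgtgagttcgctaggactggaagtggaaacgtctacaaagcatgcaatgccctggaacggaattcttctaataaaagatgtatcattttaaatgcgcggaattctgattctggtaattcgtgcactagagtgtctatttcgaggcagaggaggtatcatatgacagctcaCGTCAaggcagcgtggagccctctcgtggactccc
The match is a description of these letters, and nothing in the arrays measures binding there.

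Median intensities were 170 to 189 on the olanzapine arrays, and 159, 167, 163 and 191 on saline 14, 15, 17 and 19. Each array correlated with the remaining 7 at a median r of 0.968 (olanzapine 14) down to 0.949 (saline 15). Cortical identity was checked with marker lists: 5 of 6 excitatory neuron markers and 8 of 8 interneuron markers on the array were left by the filter, against 0 of 4 markers of basal forebrain cholinergic neurons (Chat, Slc18a3, Slc5a7 and Isl1). Markers of striatal medium spiny neurons were also present, with 5 of 7 left by the filter. Markers of the meninges had positive differences in 8 of 8 measured genes, with summed intensities of 3492 to 9473 in olanzapine and 2632 to 3377 in saline. The median log2 difference of these 8 genes was 0.65. In limma 0 of them passed the adjusted test and 6 had an unadjusted p under 0.05, against 8.48% of all 10123 genes. Over all 10123 genes, 5401 had a positive difference. The part of the meninges markers in the results below was not tested.

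Bdnf probe set 1368677_at had intensities of 347, 244, 374 and 261 in olanzapine 9, 14, 18 and 19, against 437, 358, 280 and 382 in saline 14, 15, 17 and 19. Olanzapine 14 and 19 lay below every saline array, while olanzapine 9 and 18 lay inside the saline range. The log2 difference was -0.21 (SE 0.17, 95% interval -0.58 to 0.15, limma unadjusted p = 0.234, adjusted p = 0.796). As a ratio of olanzapine over saline, taken of intensity + 63.4, the interval ran from 0.671 to 1.11.

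Bdnf probe set 1368678_at had 306, 196, 202 and 193 in olanzapine 9, 14, 18 and 19, against 276, 123, 49.2 and 246 in saline 14, 15, 17 and 19. Olanzapine 9 lay above every other array, and saline 17 and 15 lay below every olanzapine array. The difference was 0.39 (SE 0.30, 95% interval -0.24 to 1.02, limma adjusted p = 0.785), and without saline 17 it was 0.078. Its SD within groups, 0.55 on the log2 scale, was larger than that of 96.8% of the probe sets tested. The 2 Bdnf probe sets thus gave differences of opposite sign, and neither passed the test.

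**Figure D1:**
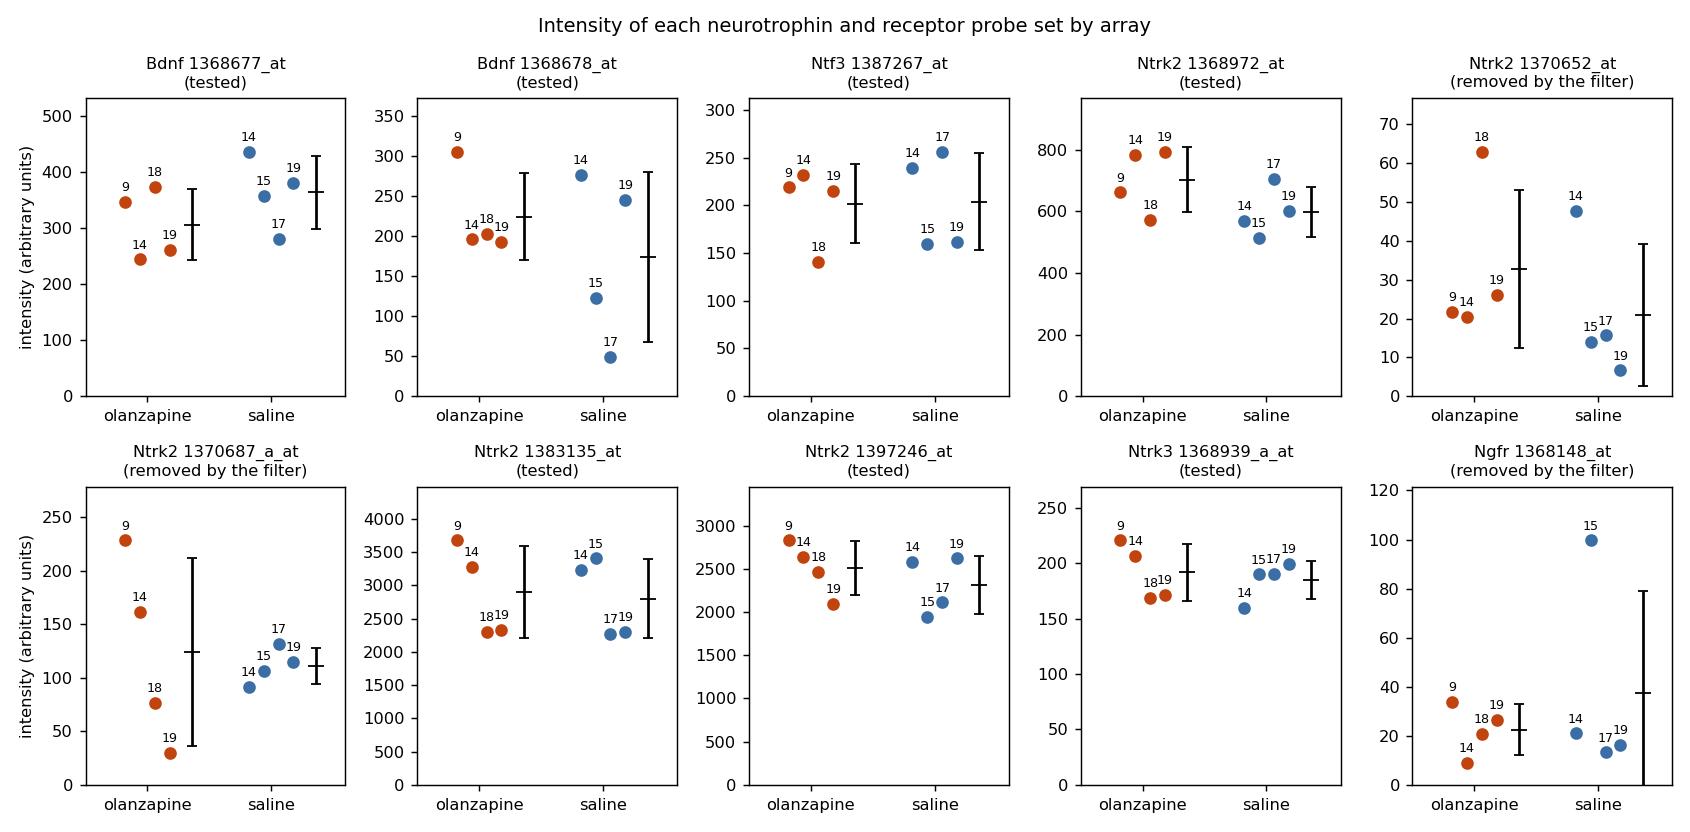
Intensity (arbitrary units, linear axes from 0, scaled separately in each panel) of the 10 probe sets on each array, numbered by animal, with olanzapine in orange and saline in blue. Black marks and bars are means and SDs of 4 arrays, the SD bar of Ngfr in saline being clipped at 0. The groups overlap in all 10 panels, and the wide saline spread of Bdnf 1368678_at comes with saline 17 at 49.2 and saline 14 at 276.

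Across the 8 arrays the 2 Bdnf probe sets correlated at r = 0.43 (Spearman's rho 0.50, exact permutation p = 0.298 and 0.216, adjusted over 21 pairs of tested probe sets 0.900 and 0.923). After each group's mean was taken away, r was 0.73. Both probe sets were highest in saline 14 and lowest in saline 17 among the saline arrays. Among the olanzapine arrays the order was not the same, since 1368677_at was highest in olanzapine 18 and 1368678_at in olanzapine 9.

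Ntf3, the gene of neurotrophin 3, had 219, 232, 140 and 215 at its probe set 1387267_at in olanzapine 9, 14, 18 and 19, against 239, 159, 256 and 161 in saline 14, 15, 17 and 19. Olanzapine 18 was the lowest of the 8 arrays, and the remaining olanzapine arrays lay between the low and the high saline pair. The difference was -0.0080 (SE 0.20, 95% interval -0.43 to 0.41, limma adjusted p = 0.995). Its sign is not settled, since without olanzapine 18 it was 0.11 and without saline 15 it was -0.089.

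Ntrk2 was read by 5 probe sets, of which the filter kept 3. The filter removed probe sets with a mean at or below the 40th percentile, which corresponds to an intensity of 114. Levels of different probe sets cannot be set against each other, because each binds its target with its own strength, but their patterns over the arrays can. Differences at the 3 tested probe sets were 0.21, 0.042 and 0.11, none past the adjusted test.

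Ntrk2 probe set 1368972_at had 661, 783, 571 and 793 in olanzapine 9, 14, 18 and 19, against 568, 513, 705 and 600 in saline 14, 15, 17 and 19. Olanzapine 14 and 19 were the highest of all arrays, and olanzapine 18 lay near saline 14. The difference was 0.21 (SE 0.14, 95% interval -0.086 to 0.51, limma unadjusted p = 0.150, adjusted p = 0.751), the smallest p among the 7 tested probe sets.

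Ntrk2 probe set 1383135_at had 3675, 3283, 2306 and 2325 in olanzapine 9, 14, 18 and 19, against 3227, 3404, 2276 and 2295 in saline 14, 15, 17 and 19. Each group was split evenly, with 4 arrays at 3227 or more and 4 at 2325 or less, and no array between. The groups therefore hardly differed, by 0.042 (SE 0.16, 95% interval -0.31 to 0.39, limma adjusted p = 0.967), and the sign turned to -0.0096 with median centring of the arrays. The labels give no batch, so nothing in them says what olanzapine 9 and 14 share with saline 14 and 15.

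Ntrk2 probe set 1397246_at had 2828, 2635, 2464 and 2091 in olanzapine 9, 14, 18 and 19, against 2577, 1943, 2110 and 2619 in saline 14, 15, 17 and 19. Saline 14 and 19 lay within the range of the olanzapine arrays, whose lowest value was just under that of saline 17. The difference was 0.11 (SE 0.12, 95% interval -0.14 to 0.37, limma adjusted p = 0.843).

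The 3 tested probe sets did not follow one pattern. Between 1368972_at and 1383135_at r was -0.19, between 1368972_at and 1397246_at it was 0.075 and between 1383135_at and 1397246_at it was 0.29, given as a description over 8 arrays. Only 1383135_at showed the even split, and only 1368972_at had its highest values in olanzapine 14 and 19.

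**Figure D2:**
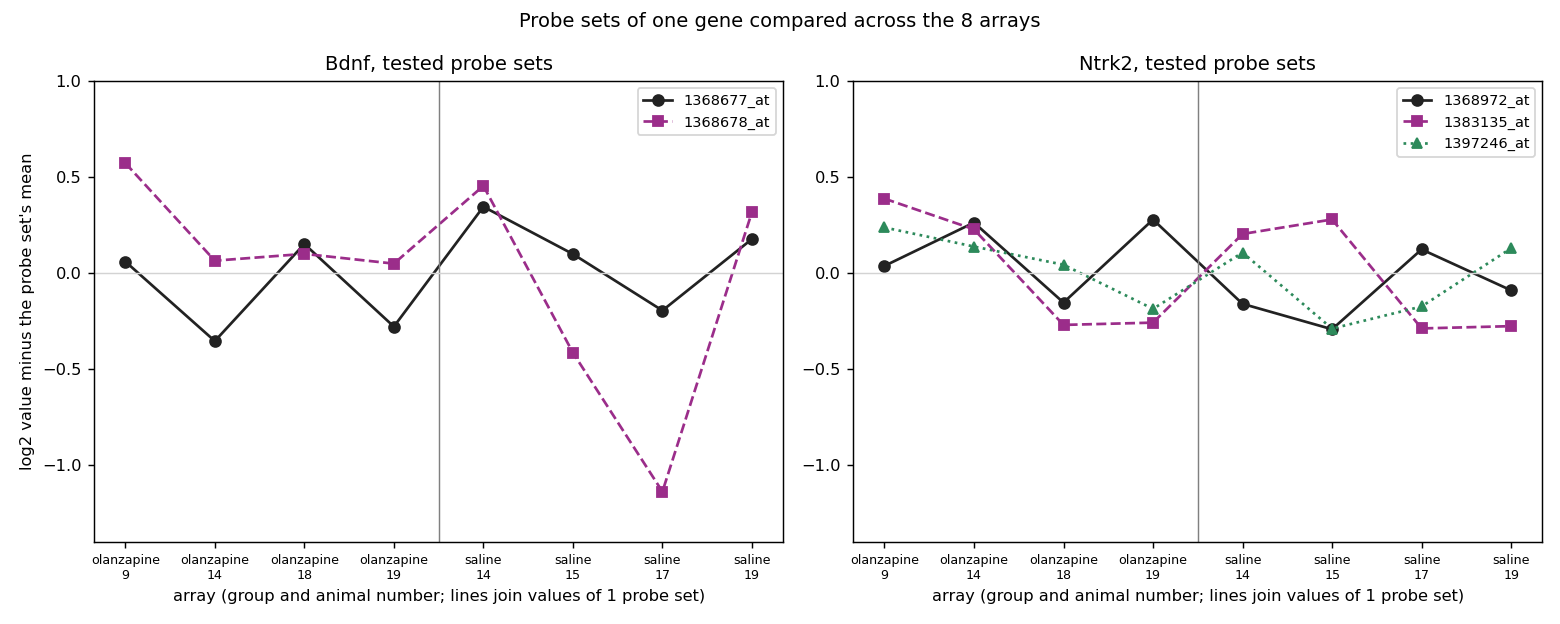
Log2 value minus the mean of the probe set over the 8 arrays, for the 2 Bdnf probe sets (left) and the 3 tested Ntrk2 probe sets (right), with olanzapine arrays left of the vertical line and saline arrays right of it. Bdnf 1368678_at (dashed) is lowest in saline 17, and Ntrk2 1383135_at (dashed) is high in olanzapine 9 and 14 and in saline 14 and 15.

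Both other Ntrk2 probe sets fell under the filter, and their differences come from a fit of all 31042 probe sets without it. Probe set 1370687_a_at, with a mean log2 value of 7.43 against the threshold of 7.47, was just outside, and the Bdnf probe set 1368678_at, at 7.96, was the nearest member inside. It had 228, 161, 76.6 and 30.2 in olanzapine 9, 14, 18 and 19, against 91.7, 107, 132 and 115 in saline 14, 15, 17 and 19. The olanzapine arrays surrounded the saline arrays, 2 above and 2 below all of them. The difference was -0.024 (SE 0.32, 95% interval -0.73 to 0.68, limma adjusted p = 0.996). Probe set 1370652_at lay between 20.5 and 63.0 in olanzapine and between 6.65 and 47.8 in saline, with a difference of 0.19 (SE 0.19, limma adjusted p = 0.883).

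Markers of astrocytes, the cells that carry truncated TrkB, had negative differences in 7 of 7 measured genes, with a median of -0.16 as deposited and -0.076 after quantile normalization, where 1 of 7 was positive. Their summed intensity was 38100 to 43540 in olanzapine and 42641 to 48886 in saline. None of the 7 passed the adjusted test of limma, and 2 had an unadjusted p under 0.05, where 8.48% of all 10123 genes did. Over these 10123 genes, 5401 had a positive difference as deposited. The part of the astrocyte markers in the Ntrk2 values was not tested. In cortex tissue fewer cells of a type and less RNA per cell cannot be told apart.

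Ntrk3, the gene of TrkC, was the steadiest member, with an SD within groups of 0.13 on the log2 scale, larger than that of 13.5% of all probe sets tested. Its probe set 1368939_a_at had 221, 207, 169 and 172 in olanzapine 9, 14, 18 and 19, against 160, 190, 190 and 200 in saline 14, 15, 17 and 19. Olanzapine 9 and 14 lay above every saline array, and olanzapine 18 and 19 lay low in the saline range. The difference was 0.038 (SE 0.17, 95% interval -0.33 to 0.41, limma adjusted p = 0.972), and it was -0.015 after quantile normalization, -0.014 with median centring and -0.029 with cyclic loess.

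Ngfr, the gene of the p75 receptor, was dim and was removed by the filter. Its probe set 1368148_at had 33.8, 8.89, 20.9 and 26.4 in olanzapine 9, 14, 18 and 19, against 21.0, 99.6, 13.3 and 16.4 in saline 14, 15, 17 and 19. Saline 15 stood apart at 99.6, and every remaining array was at 33.8 or less. In the fit without the filter the difference was -0.17 (SE 0.23, limma adjusted p = 0.923), and without saline 15 it was 0.091. Summed intensities of the 4 cholinergic markers, all dim, were 182 to 332 in olanzapine and 262 to 395 in saline, so neither Ngfr nor these markers rose above the filter in this tissue.

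**Figure D3:**
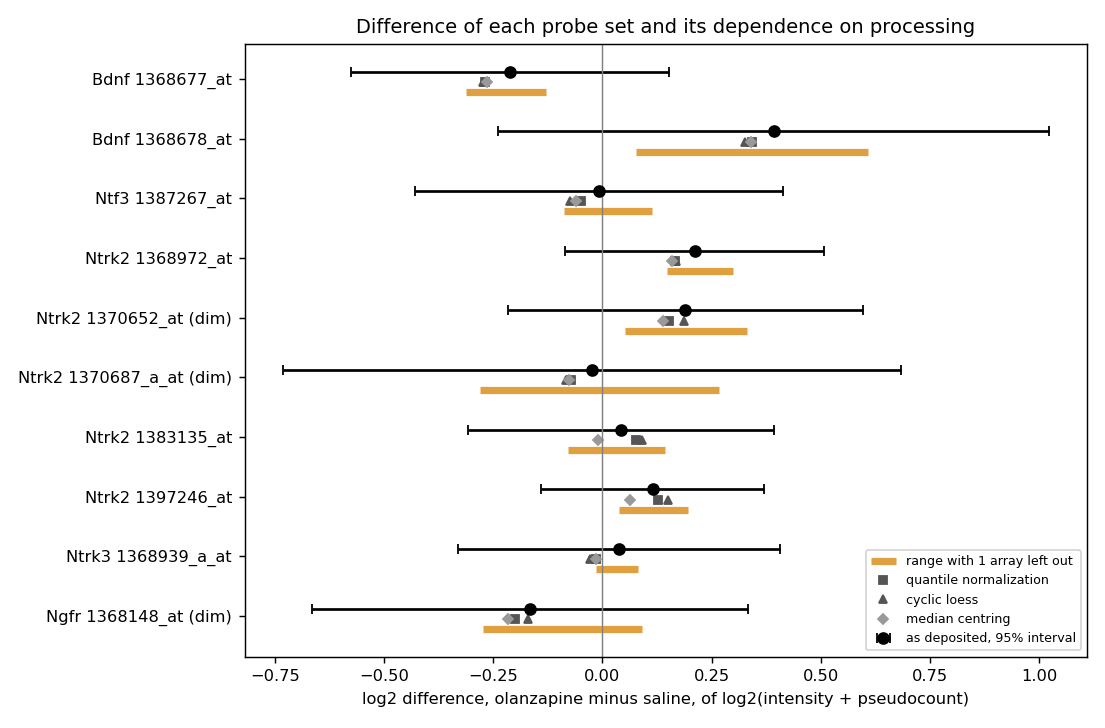
Log2 difference, olanzapine minus saline, of the 10 probe sets (black points with 95% intervals from limma), with the values after 3 other normalizations (grey symbols) and the range with 1 array left out at a time (orange bars). All 10 intervals include 0, and the orange bars of Ntf3, Ntrk2 1370687_a_at, Ntrk2 1383135_at, Ntrk3 and Ngfr cross 0.

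Over the 7 tested member probe sets, 0 passed an adjusted p of 0.05 in limma, where 0% of all 18625 probe sets did. At an unadjusted p under 0.05 the count was 0 of 7, against 8.32% of all. Groups did not overlap for 0 of 7, against 4.47% of all. Differences were positive for 5 and negative for 2, with a median of 0.042, and the median over all 18625 probe sets was 0.027. In data simulated with the spreads of all probe sets and 200 changed ones, the model called 39.6% of 1.5-fold and 85.8% of 2-fold changes. These rates need not hold for the members, since in the measured data 0% of all probe sets passed. Nr4a1, named below, differed by 1.02 on the log2 scale and had a limma adjusted p of 0.317. The spread of Bdnf 1368678_at was larger than that of 96.8% of the probe sets tested. Changes of 2-fold in a member could therefore also be missed with 4 animals a group. Without saline 19, 107 probe sets of the whole array passed, and without olanzapine 9, 1 did, none of them a member.

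Among the 21 pairs of tested probe sets, the strongest relation was between Bdnf 1368677_at and Ntrk2 1368972_at, ligand and receptor, which ran in opposite directions. Olanzapine 14 and 19 and saline 17 had the lowest Bdnf and the highest Ntrk2 values. Pearson's r was -0.87 over the 8 arrays (exact permutation p = 0.00652, adjusted over the 21 pairs 0.137), and Spearman's rho was -0.81 (exact permutation p = 0.0218, adjusted 0.386). It did not pass the adjustment. After each group's mean was taken away, r was -0.84, and without the 2 arrays farthest from the Bdnf median r was -0.67. Of the 5 remaining pairs of a Bdnf and an Ntrk2 probe set, 4 had a positive r. Bdnf 1368678_at had r = 0.75 with Ntrk2 1397246_at (rho 0.76, exact permutation p = 0.0229 and 0.0368, adjusted 0.241 and 0.386), the second strongest of the 21 pairs and opposite in direction, and it did not pass the adjustment either. Within groups this r was 0.71, and without the 2 arrays farthest from the Bdnf median it was 0.67. Bdnf 1368678_at had r = 0.36 with Ntrk2 1383135_at and -0.10 with Ntrk2 1368972_at, and Bdnf 1368677_at had r = 0.15 with Ntrk2 1383135_at and 0.27 with Ntrk2 1397246_at.

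**Figure D4:**
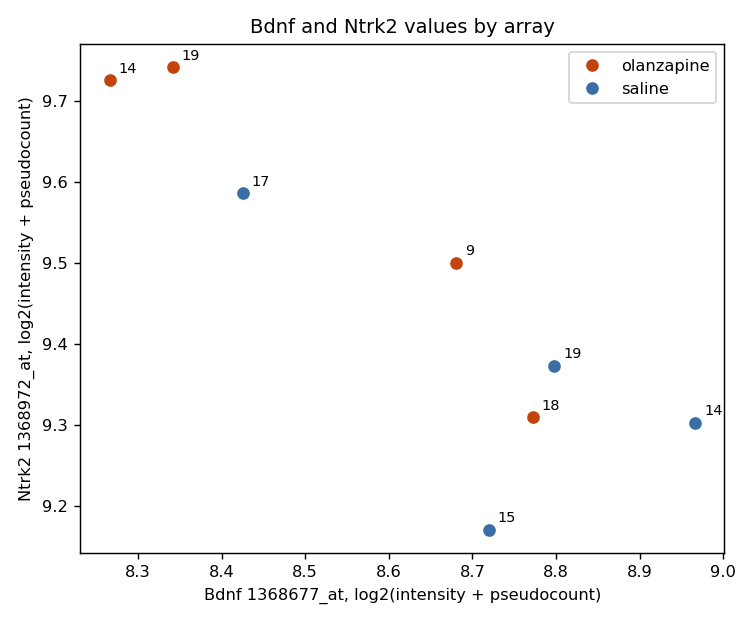
Values of Bdnf 1368677_at (horizontal axis) and Ntrk2 1368972_at (vertical axis), both as log2(intensity + 63.4), on the 8 arrays, labelled by animal number and coloured by group. Points run from olanzapine 14 and 19 at upper left to saline 14 and 15 at lower right, with r = -0.87.

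For each member gene left by the filter, the genes with the most similar values over the 8 arrays were sought among 10122 others, each by its brightest probe set. With so many candidates and 8 arrays, the top of such a list is chosen for its r, which is given without a p. Bdnf was most like Scn2a, a sodium channel gene of excitatory neurons (r = 0.90, within groups 0.88), Nup98 of the nuclear pore and the RNA methyltransferase gene Mettl16 (both r = 0.90). Ntf3 was most like Igdcc3 (r = 0.95), Coa4 (0.95) and the kainate receptor gene Grik2 (0.94). For Ntrk2, read by 1383135_at, the leading genes were Tek, which encodes the endothelial receptor Tie2 (0.97), Reln, the gene of reelin (0.94), and Spaca6 (0.93). For Ntrk3 they were Ncln (0.96), the arginine methyltransferase gene Prmt5 (0.95) and the ubiquitin protease gene Usp24 (0.95).

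Genes that act before, beside and after the neurotrophin receptors were taken from lists of 224 genes, of which 193 were on the array and 156 were left by the filter. None passed the adjusted test of limma, and 24 of the 156 had an unadjusted p under 0.05, or 15.4%, where 8.48% of all 10123 genes did. Because the lists were chosen with earlier results of these data known, these shares and the list counts below are a description only. The count was 15 without olanzapine 9, where 1154 of all 18625 probe sets had such a p, against 1549 with all arrays. The median difference was 0.011, and 0.015 over all genes. Groups did not overlap for 14 of the 156 list genes, or 8.97%, against 4.47% of all 18625 probe sets. Without saline 19, 4 list genes passed, Cpe, Slitrk1, Prkcb and Mef2c, all lower in olanzapine, as were 96 of the 107 probe sets that passed over the whole array in that setting. Ntf4, the gene of a further TrkB ligand, was on the array and was removed by the filter.

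Processing and sorting genes, whose products cleave neurotrophin precursors or carry them to vesicles, had 17 members left by the filter, 6 with positive and 11 with negative differences and a median of -0.049. Unadjusted p-values under 0.05 were seen for 2, both lower, where 4.23% of all genes were lower and 4.25% higher. Cpe, which encodes carboxypeptidase E, a sorting receptor for the BDNF precursor, was at 15323 ± 946 in olanzapine and 19501 ± 1492 in saline (n = 4 each), a difference of -0.35 (SE 0.08, limma adjusted p = 0.317). The groups did not overlap, but after quantile normalization the difference was -0.018. Hap1, which encodes a partner of huntingtin in the transport of BDNF vesicles, was at 1133 ± 109 in olanzapine and 1391 ± 176 in saline, a difference of -0.28 (SE 0.12) as deposited and -0.29 after quantile normalization. Furin, the gene of a protease that cleaves neurotrophin precursors, lay at 1541 to 1607 in olanzapine and 1264 to 1456 in saline, without overlap, a difference of 0.17 (SE 0.10, limma unadjusted p = 0.0922, adjusted p = 0.691).

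Adaptors and effectors of Trk receptors had 42 members left by the filter, 18 with positive and 24 with negative differences and a median of -0.022. At an unadjusted p under 0.05, 2 were higher and 4 lower, where 4.25% and 4.23% of all genes were. Without saline 19 these counts were 4 and 6, and 2151 of all probe sets had such a p, against 1549 with all arrays. Shc1, an adaptor gene whose product docks on phosphorylated Trk receptors, was at 795 ± 134 in olanzapine and 592 ± 47.3 in saline, a difference of 0.38 (SE 0.14, limma adjusted p = 0.487). Slitrk1, whose product resembles Trk receptors outside the kinase, was at 5200 ± 404 in olanzapine and 7045 ± 924 in saline, without overlap. This was a difference of -0.43 (SE 0.10, limma adjusted p = 0.317). Only 1 of 3 tested probe sets of Slitrk1 had this sign. Prkcb, a protein kinase C gene, had a difference of -0.40 (SE 0.10), without overlap, or -0.22 after quantile normalization, with 1 of 2 probe sets of this sign. The remaining ones were named after their values were seen: Pik3r2, a regulatory subunit gene of phosphoinositide 3-kinase, at 0.30, Pdpk1, the kinase upstream of Akt, at -0.22, and Itpr1, the gene of a calcium release channel, at -0.22. After quantile normalization Pdpk1 was at -0.086 and Itpr1 at -0.026.

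Partners and effectors of p75 had 24 members left by the filter, 17 with positive and 7 with negative differences and a median of 0.068. At an unadjusted p under 0.05, 3 were higher and 1 lower, where 4.25% and 4.23% of all genes were. Without olanzapine 9 these counts were 0 and 1, and after quantile normalization both were 0. Over the whole array 1154 and 1187 probe sets had such a p in these settings, against 1549 as deposited with all arrays. Traf6, an adaptor gene of p75 signalling, was at 739 ± 155 in olanzapine and 519 ± 225 in saline, a difference of 0.51 (SE 0.21, limma adjusted p = 0.539), with 2 of 3 probe sets of this sign. Bcl10 was at 559 ± 75.5 in olanzapine and 433 ± 21.1 in saline, without overlap, a difference of 0.32 (SE 0.13). Rac1, a GTPase gene, was at 11186 ± 812 in olanzapine and 13440 ± 684 in saline, also without overlap, a difference of -0.26 (SE 0.08) that was -0.041 after quantile normalization and had this sign in 1 of 2 probe sets. Adam17, whose product sheds the outer part of p75, differed by 0.37 (SE 0.17) and by 0.23 without saline 19, and was named after its value was seen.

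Transcription factors and repressors of Bdnf had 25 members left by the filter, 8 with positive and 17 with negative differences and a median of -0.043. At an unadjusted p under 0.05, 1 was higher and 2 lower, where 4.25% and 4.23% of all genes were. Without saline 19 these counts were 1 and 5, and 2151 of all probe sets had such a p, against 1549 with all arrays. Bhlhe40, a repressor gene that acts on a Bdnf promoter, was at 191 ± 34.1 in olanzapine and 121 ± 52.8 in saline, a difference of 0.50 (SE 0.23, limma adjusted p = 0.588). Mef2c, an activity-regulated factor of excitatory neurons, was at 15719 ± 1494 in olanzapine and 20761 ± 2261 in saline, without overlap, a difference of -0.40 (SE 0.09, limma adjusted p = 0.317) that was -0.081 after quantile normalization. Arnt2, a partner of activity-induced factors, differed by -0.23 (SE 0.10, limma adjusted p = 0.554). Its groups were just apart, with 2999 as the highest olanzapine and 3001 as the lowest saline value.

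Genes that Trk signalling induces in neurons had 24 members left by the filter, 18 with positive and 6 with negative differences and a median of 0.22, the highest among the lists tested here. At an unadjusted p under 0.05, 6 were higher and 1 lower, and 4.25% and 4.23% of all genes were. Nr4a1, an orphan nuclear receptor gene, was at 471 ± 65.0 in olanzapine and 209 ± 75.3 in saline, without overlap, a difference of 1.02 (SE 0.21, limma adjusted p = 0.317). Homer1, a postsynaptic scaffold gene, differed by 0.60 (SE 0.21), by 0.33 without saline 19, with 3 of 4 probe sets of this sign. Spry4, a feedback inhibitor gene of receptor tyrosine kinase signalling, was at 286 ± 34.4 in olanzapine and 178 ± 64.3 in saline, a difference of 0.57 (SE 0.20, limma adjusted p = 0.487). The remaining ones were named after their values were seen. Dusp5, which encodes a phosphatase of ERK, differed by 0.41, and by 0.27 without olanzapine 9. The transcription factor genes Fosb and Klf10 differed by 0.55 and 0.46, and Fosb by 0.34 without saline 19. Nrn1, the gene of neuritin, differed by -0.20, and by 0.028 after quantile normalization. The list's median was 0.11 without saline 17, where 4 were higher and 1 lower at an unadjusted p under 0.05, and without saline 19 these counts were 4 and 2. Many stimuli besides neurotrophins induce the genes of this list, and what lies behind their differences was not tested.

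Other neurotrophic factors and receptors had 24 members left by the filter, 14 with positive and 10 with negative differences and a median of 0.030. At an unadjusted p under 0.05, 1 was higher and 1 lower, where 4.25% and 4.23% of all genes were. Gfra2, the gene of the neurturin co-receptor, was at 1283 ± 198 in olanzapine and 1704 ± 311 in saline, a difference of -0.39 (SE 0.14, limma adjusted p = 0.487), with 1 of 2 probe sets of this sign. Fgf9, a fibroblast growth factor gene, was at 432 ± 47.0 in olanzapine and 330 ± 63.6 in saline, without overlap, a difference of 0.35 (SE 0.16), with 1 of 2 probe sets of this sign, and of 0.22 without saline 14. Kdr, a receptor gene for vascular endothelial growth factor, differed by -0.29 (SE 0.14, limma adjusted p = 0.605), and by -0.18 without olanzapine 19.

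**Figure D5:**
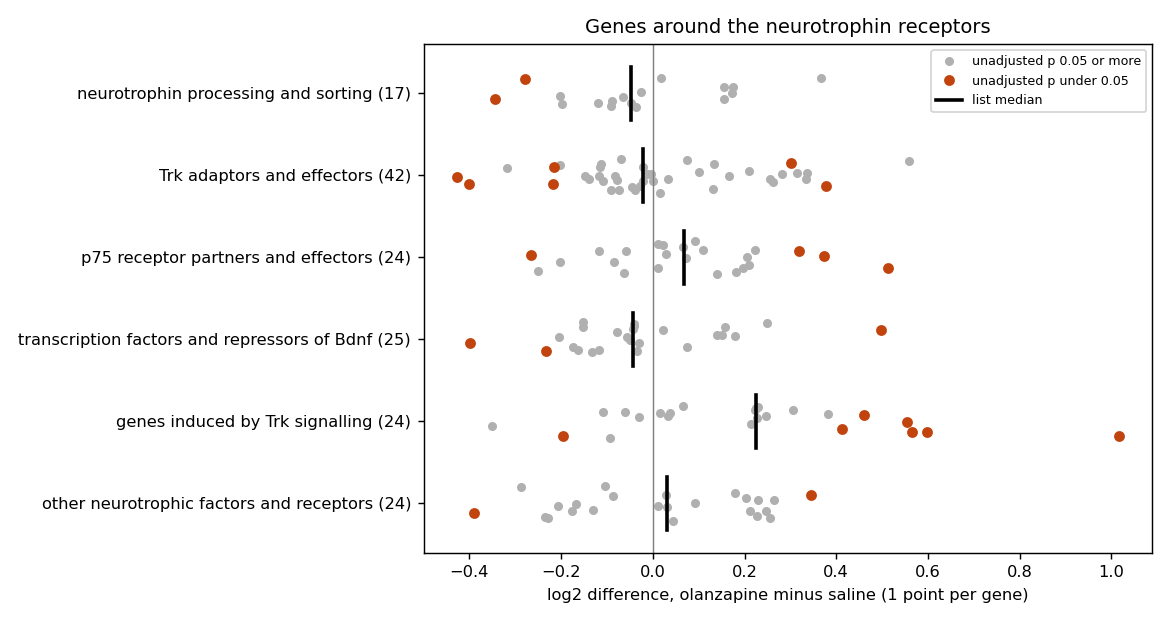
Log2 difference, olanzapine minus saline, of each gene of the 6 lists with members left by the filter (1 point per gene, its brightest probe set, list size in brackets), with unadjusted p under 0.05 in orange and the list median as a black bar. The median of genes induced by Trk signalling lies at 0.22, led by Nr4a1 at 1.02, and the remaining medians lie between -0.049 and 0.068.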

How the data were processed

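The authors deposited linear probe set intensity values for 8 arrays, 31099 probe sets each, of which 57 are controls. With the lowest and highest 2% left out, all arrays had means of 500.1 to 500.2, which shows that the authors had scaled them. Nothing on software, background correction or detection calls is given in the sources used here, and the number of arrays limits the precision. No batch is named in the labels. Each array was taken as a separate animal, as its title numbers it.

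Symbols came from the platform's gene table, and those of listed genes were updated by Entrez identifier from RefSeq's GRCr8 table (20758 of 20826 probe sets with 1 symbol matched, 436 had several symbols and 9780 none). Log2(intensity + 63.4), with the 25th percentile of the values added, was filtered above the 40th percentile of probe set means and fitted in limma 3.58.1 under R 4.3.3 (lmFit, eBayes with trend, two-sided, Benjamini-Hochberg at 0.05). Listed genes were read by their brightest probe set. Correlations used Python 3.11.15 and scipy 1.17.1, with exact permutation over all pairings. The fit was tested on simulated data with 200 changed probe sets in 10 runs (6.43% of calls false). Named genes were all members, the 3 genes of each list with the smallest unadjusted p, and the 3 genes most correlated with each member. The members and lists were chosen with earlier results of these data known. Alternatives tried were 3 normalizations, pseudocounts of 16 and 1, no filter and one at the 60th percentile, array weights, no trend, a block on animal number, each array left out, and the other probe sets of a gene.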

Additional observations from a re-analysis of the deposited data

Results flagged for a closer look

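In groups of 4 arrays, a highest or lowest value was set apart when its gap to the nearest other array exceeded 0.829 of the group's range on the log2 scale. Chance gives about 1 in 20 such groups, and 11 of the 96 groups checked, in 48 named probe sets, were set apart, 4 of them among the 20 groups of the member probe sets. Bdnf 1368678_at was at 306 in olanzapine 9, against 193 to 202 in the other olanzapine arrays. Ntf3 was at 140 in olanzapine 18, against 215 to 232 in the others. The dim Ntrk2 probe set 1370652_at was at 63.0 in olanzapine 18, against 20.5 to 26.0 in the others. Ngfr was at 99.6 in saline 15, against 13.3 to 21.0 in the other saline arrays. Among the other genes named, Nr4a1 was at 97.5 in saline 17 (other saline arrays 228 to 261), Nup98 at 323 in saline 17 (400 to 413), Fgf9 at 236 in saline 14 (349 to 374), Pdpk1 at 5963 in saline 19 (7214 to 7360) and Prmt5 at 753 in saline 14 (1145 to 1224). In olanzapine, Adam17 was at 451 in olanzapine 19 (others 627 to 654) and Klf10 at 1613 in olanzapine 9 (2407 to 2500).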

How the results depend on the processing

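No member probe set passed the adjusted test in any of the 18 alternative settings in which it was fitted. With 1 array left out, the log2 differences ran from -0.31 to -0.13 for Bdnf 1368677_at, 0.078 to 0.61 for Bdnf 1368678_at, -0.089 to 0.11 for Ntf3, 0.15 to 0.30 for Ntrk2 1368972_at, 0.051 to 0.33 for Ntrk2 1370652_at, -0.28 to 0.27 for Ntrk2 1370687_a_at, -0.080 to 0.14 for Ntrk2 1383135_at, 0.037 to 0.20 for Ntrk2 1397246_at, -0.015 to 0.082 for Ntrk3 and -0.27 to 0.091 for Ngfr. Normalization turned the sign of Ntrk2 1383135_at with median centring (-0.0096) and of Ntrk3 with quantile normalization (-0.015), median centring (-0.014) and cyclic loess (-0.029). Reading Bdnf by 1368678_at in place of 1368677_at turned it to 0.39. The causes were not tested. The filter at the 60th percentile removed Bdnf 1368678_at, Ntf3 and Ntrk3, which have no value there.

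Numbers 14 and 19 occur in both groups, for different animals, and the labels do not pair them, so the numbers were not taken as pairs. Deviations from the group means correlated at 0.075 between the arrays numbered 14 and at 0.11 between those numbered 19. Olanzapine 14 and 19 correlated lower with the saline arrays of a different number, from -0.13 to 0.058, and all of these values were small. A replicate block on animal number uses only the 4 arrays numbered 14 and 19 for the comparison. Against all 8 arrays, the difference turned sign to -0.33 for Bdnf 1368678_at, 0.14 for Ntf3, -0.027 for Ntrk2 1370652_at and -0.14 for Ntrk2 1397246_at. It was -0.58 for Bdnf 1368677_at (limma unadjusted p = 0.0242, adjusted p = 0.805) and 0.40 for Ntrk2 1368972_at (unadjusted p = 0.0450, adjusted p = 0.912), against -0.21 and 0.21 with 8 arrays. Under the block 6 probe sets of the whole array passed, and 991 of all 18625 had an unadjusted p under 0.05, against 1549 without it. Of the 156 list genes 14 had such a p, 0 of the 14 among transcription factors and repressors of Bdnf. With 1 array left out, 0 to 107 probe sets passed, 107 without saline 19, and 15 to 30 list genes had an unadjusted p under 0.05, against 24 with all arrays. The 15 came without olanzapine 9, where 1154 of all 18625 probe sets had such a p. The 30 came without saline 19, where 2151 did. Of the 26 genes named from the lists, each read by its brightest probe set, 25 kept their sign in every setting fitted. Nrn1 turned to 0.028 after quantile normalization, and 4 (Cpe, Slitrk1, Prkcb and Mef2c) passed only without saline 19. Other probe sets of a gene were not among these settings. Another tested probe set had the opposite sign for Slitrk1, Prkcb, Rac1, Traf6, Homer1, Gfra2 and Fgf9.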
